A study of Arabidopsis thaliana with 12 samples.

Results

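The genes described here are those that the probe annotation names LCR or SCRL with a number, taken as a family of small cysteine-rich peptide genes in Arabidopsis roots. Every annotation row with such a symbol named 1 gene and each gene had 1 row, which gave 75 members, 63 named LCR and 12 named SCRL, of the 16548 genes tested. The F-box gene LCR, whose symbol has no number, was kept out. RefSeq TAIR10.1 lists 113 genes with an LCR or SCRL number, so 75 of the 113 were followed. All 75 are annotated there as protein-coding, with 5 on chromosome 1, 20 on chromosome 2, 16 on chromosome 3, 25 on chromosome 4 and 9 on chromosome 5.

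LCR stands for low-molecular-weight cysteine-rich and SCRL for SCR-like, after SCR, the cysteine-rich pollen peptide that decides self-incompatibility in Brassica. Both names mark small defensin-like peptides that carry a secretion signal and cysteines able to form disulphide bridges. A few members also bear a plant defensin (PDF) name. Plant defensins are known as antifungal peptides, whereas for most numbered LCR and SCRL genes no function is known.

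The study placed phloem-expressed Dof genes, which encode plant-specific zinc-finger transcription factors, under the estrogen-inducible vector ER8. Its 3 lines were ER8Dof1.1 in S32/Col, ER8Dof2.2 in SUC2p::GFP-GUS and ER8PEAR2 in SUC2p::GFP-GUS, SUC2p being the promoter of a phloem companion cell gene. Plants that were 68 h old were moved to plates with 0 µM (mock) or 10 µM estriol for 16 h, and RNA of entire roots was hybridised to 1-colour arrays, 2 biological replicates in each of 6 groups and 12 arrays in all. Samples are called Dof1.1, Dof2.2 and PEAR2 roots after their line. The question put to these members is which of them changed when each transcription factor was induced, and whether the lines differed.

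A mock group shares its line's transgene and reporter background, and no line without a transgene is in the design, so effects of estriol and of the induced factor cannot be told apart, nor can line and background. In bulk roots, more cells of a type and more RNA per cell cannot be told apart. The labels do not say how many plants made a replicate or how many independent transformants a line stands for. The DOF2.2 transcript rose by 2.99, 3.04 and 2.04 on the log2 scale in Dof1.1, Dof2.2 and PEAR2 roots, and the PEAR2 transcript by 1.03 and 4.38 in Dof1.1 and PEAR2 roots, with 0.13 in Dof2.2 roots (limma, adjusted p = 0.698). The Dof1.1 transcript is not analysed here. Replicate arrays of a group correlated between 0.988 and 0.995 over all 28583 entries of the arrays. A listed or flanking gene is called measured here when it was matched to a kept entry that names 1 gene. Of 28583 entries, 11861 did not name exactly 1 gene and were left out, so a gene not measured may still be on the arrays. Of 33 root markers only EXPA7, EXPA18 and PYK10 were measured, and they were among the bright signals in each mock group, at log2 9.17 to 13.46.

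In mock roots the members were mostly at the low end of the arrays. A gene is called dim here when its group mean lies under the lower quartile of all entries of the arrays of that group, which was log2 3.56 in Dof1.1 mock, 3.0 in Dof2.2 mock and 4.04 in PEAR2 mock. Of the 75 members, 62, 63 and 64 were dim in the mock groups of Dof1.1, Dof2.2 and PEAR2 roots, against 29.3%, 29.3% and 29.4% of all genes. In the estriol groups 53, 56 and 58 were dim, against 29.2%, 29.4% and 29.6%. Dim in all 6 groups were 52 members (background 21.8%), and 9 were dim in none (background 63%). The files give no detection calls, so a dim value does not show that a transcript was absent, and a rise from a dim level has a fold that is not exact.

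A minority of the members rose, and a few of those rose very strongly. In at least 1 line 16 members rose (background 22.6%). With estriol 14 members rose in Dof1.1 roots, against 17.8% of all genes tested (18.7% of members). In the Dof2.2 line 11 rose, against 14.8% (14.7% of members), and in PEAR2 roots 11 rose, against 8.33% (14.7% of members). Calls are at an adjusted p under 0.05 in limma, with Benjamini-Hochberg adjustment over all 16548 genes. The shares that rose in Dof1.1 and Dof2.2 roots lay near the background.

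Falls were few. In Dof1.1 and PEAR2 roots 0 members fell by limma, against 16.2% and 10.4% of all genes, and in Dof2.2 roots 1 did, against 13.6%. In mock, however, 62, 63 and 64 of the 75 members were dim, against 29.3%, 29.3% and 29.4% of all genes. A fall from a dim level is hard to see, so these shares do not show that the members were spared. At an unadjusted p under 0.05 in either direction, 16, 13 and 15 members passed in Dof1.1, Dof2.2 and PEAR2 roots, against 42.9%, 38.5% and 29.6% of all genes. No call in any line was made for 58 members (background 59.1%).

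Large rises made up a greater share of the members than of all genes. Members and all genes started at unlike levels, since 60 of the 75 members were dim in all 3 mock groups. The part of the starting level in this contrast was not tested. At least 2-fold rises numbered 12, 8 and 10 in Dof1.1, Dof2.2 and PEAR2 roots, against 6.96%, 5.61% and 3.91% of all genes, or 16%, 10.7% and 13.3% of the members. At least 16-fold rises numbered 7, 4 and 5, against 0.562%, 0.254% and 0.272% of all genes. These were 7 of the 93 genes that rose so far in Dof1.1 roots, 4 of 42 in Dof2.2 roots and 5 of 45 in PEAR2 roots, whereas the members make up 0.453% of the genes tested. The median change over all 75 was 0.13, 0.12 and 0.15 on the log2 scale, beside 0.11, 0.11 and 0.03 over all genes, so the middle of the list lay close to the middle of the array.

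**Figure D1:**
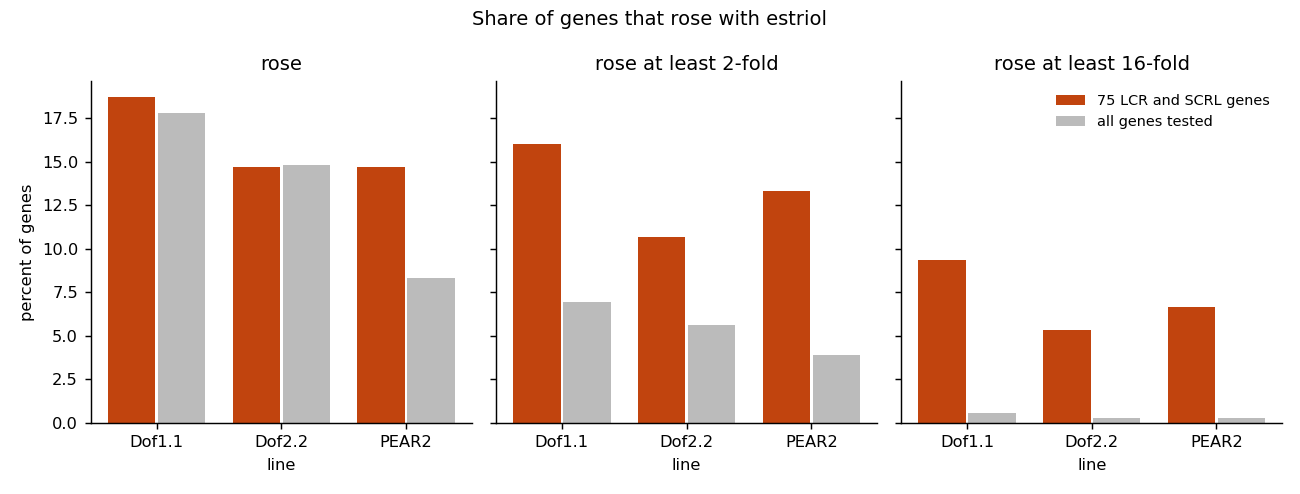
Share of genes that rose with estriol, in percent, for the 75 LCR and SCRL genes (orange bars) and all 16548 genes tested (grey bars) in each line, for any rise, rises of at least 2-fold and rises of at least 16-fold. The bars are alike for any rise in Dof1.1 and Dof2.2 roots and far apart at 16-fold, where 7, 4 and 5 members stand.

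Sorted by rise over all genes tested, 3 of the top 10 in Dof1.1 roots, 1 of the top 10 in Dof2.2 roots and 3 of the top 10 in PEAR2 roots were members. Of the top 100, members held 7, 6 and 8 places. LCR29 ranked 6, 4 and 4 in Dof1.1, Dof2.2 and PEAR2 roots, LCR42 ranked 7, 55 and 3, and LCR39 ranked 13, 25 and 9.

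Whether both estriol arrays lay above both mock arrays was counted for every gene. This held for 28, 19 and 23 members in Dof1.1, Dof2.2 and PEAR2 roots, against 37.4%, 37.7% and 33.6% of all genes. Both lay below in 4, 6 and 10 members, against 25.7%, 23.6% and 28.2%. The share whose arrays were apart was thus below the background except for rises in Dof1.1 roots, where it lay near it.

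**Figure D2:**
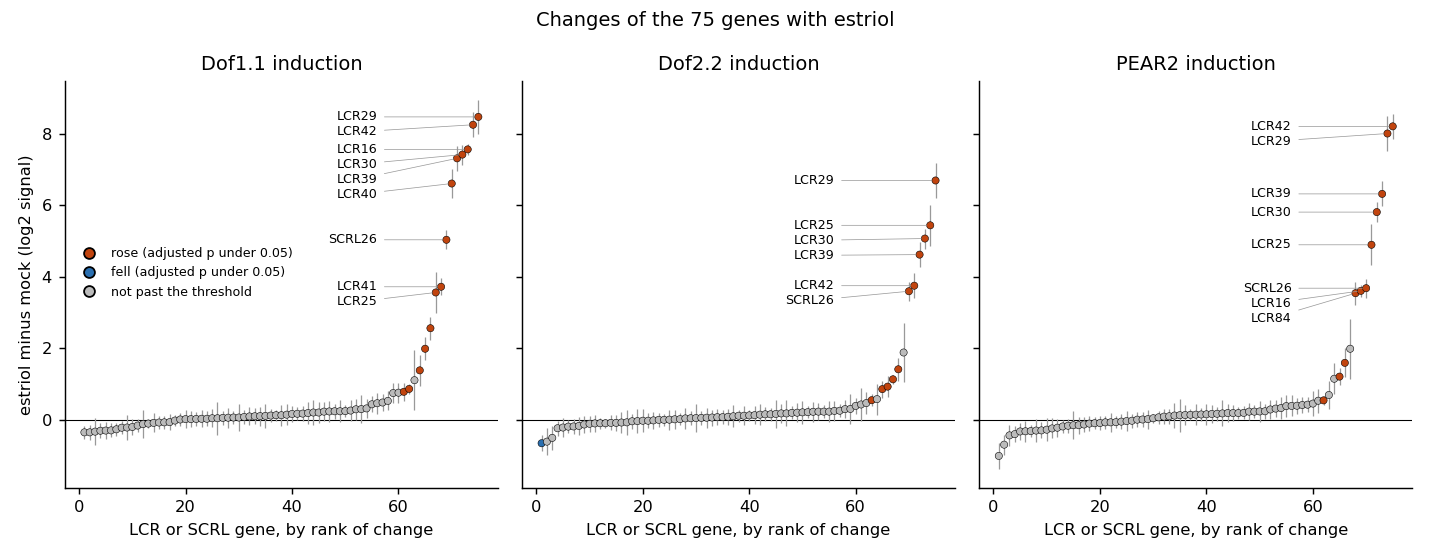
Change with estriol (log2 signal, estriol minus mock) of the 75 genes in each line, sorted by size, with bars of 1 standard error of the limma fit from 2 arrays a group and members with changes of 3 or more named. Most genes lie along 0, and the named ones rise steeply to 8.48, 6.70 and 8.22.

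In all 3 lines 9 members rose (background 6.06%), namely LCR25, LCR29, LCR30, LCR39, LCR41, LCR42, LCR68, LCR84 and SCRL26. LCR16 and LCR40 rose in exactly 2 lines, 2 members against a background of 6.16%, and 5 members rose in exactly 1 line, against 10.4%. The lines have their own mock arrays, so the 3 comparisons share no sample, although they share the model's estimate of spread. Of the 9 members that rose in all lines, 7 rose least in Dof2.2 roots and 6 rose most in Dof1.1 roots. Not every step of these orders passed a test, as given with each gene. When limma was fitted to the arrays of 1 line only, LCR41 and LCR84 lost their Dof2.2 calls (adjusted p = 0.0615 and 0.0675).

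LCR29, a numbered LCR without a defensin name, rose from a dim level in every line. In the Dof1.1 line its signals on the log2 scale were 2.38 and 4.09 in the mock arrays and 11.65 and 11.78 in the estriol arrays. In the Dof2.2 line they were 2.85 and 2.44 against 8.79 and 9.90, and in PEAR2 roots 3.98 and 3.72 against 11.81 and 11.92. The groups were far apart in each line, and the mock arrays of the Dof1.1 line differed more from each other than its estriol arrays did. The log2 changes were 8.48, 6.70 and 8.02 (SE 0.49 each, n = 2 arrays a group), with limma's adjusted p = 8.36e-07, 4.31e-06 and 3.63e-06. None of the differences between lines passed, the largest being 1.78 ± 0.69 (SE) for Dof1.1 minus Dof2.2 (adjusted p = 0.354).

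LCR30 also rose in every line, from a level that was dim in Dof1.1 and PEAR2 roots only. Its signals were 1.98 and 2.92 in Dof1.1 mock arrays and 9.76 and 9.99 in estriol arrays. They were 3.03 and 3.1 against 7.87 and 8.41 in Dof2.2 roots, and 3.47 and 3.66 against 9.39 and 9.37 in PEAR2 roots. No estriol array came near a mock array. The log2 changes were 7.43, 5.08 and 5.82 (SE 0.28), with limma's adjusted p = 9.97e-08, 7.55e-07 and 1.13e-06. The Dof1.1 change was 2.35 ± 0.40 (SE) above the Dof2.2 change (adjusted p = 0.0162), a call that 5 of 23 alternative settings did not keep (adjusted p = 0.0660 without the second Dof1.1 estriol array), and 1.61 above the PEAR2 change (adjusted p = 0.0649).

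LCR25 gave a different order of lines. Its signals were 4.36 and 4.96 against 8.04 and 8.41 in Dof1.1 roots and 3.93 and 4.63 against 9.34 and 9.02 in PEAR2 roots. In the Dof2.2 line they moved from 3.45 and 3.15 (mock) up to 7.63 and 9.86, so the estriol arrays of that line lay far apart, though both above the mock arrays. The log2 changes were 3.57, 5.45 and 4.90 (SE 0.57), all past the threshold (adjusted p = 0.000755, 5.12e-05 and 0.000202). Its change did not pass a test of difference between any pair of lines, Dof1.1 minus Dof2.2 being -1.88 ± 0.80 (SE, adjusted p = 0.422).

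LCR42 and LCR39 are next to each other on chromosome 3. LCR42 signals were 2.23 and 2.59 in Dof1.1 mock arrays and 10.62 and 10.72 in estriol arrays, and 2.03 and 2.35 against 10.35 and 10.46 in PEAR2 roots. In the Dof2.2 line they went from 1.73 and 1.24 to 4.6 and 5.88. The estriol arrays of the Dof2.2 line stood above their mock arrays and well below the estriol arrays of the other lines. After quantile normalization over all 12 arrays the estriol means were 10.64, 5.84 and 10.05 in Dof1.1, Dof2.2 and PEAR2 roots. The changes were 8.26, 3.76 and 8.22 (SE 0.35), with limma's adjusted p = 1.53e-07, 2.22e-05 and 5.94e-07. The Dof2.2 change fell short of the Dof1.1 change by 4.51 ± 0.49 (SE, adjusted p = 0.00119) and differed from the PEAR2 change by -4.46 ± 0.49 (adjusted p = 0.00226). Dof1.1 and PEAR2 differed by 0.05 ± 0.49.

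LCR39, unlike most members, was not dim in any group. It went from 5.04 and 4.55 to 11.94 and 12.29 in Dof1.1 roots, from 4.73 and 4.85 to 8.79 and 10.04 in Dof2.2 roots, and from 5.68 and 5.41 to 12.06 and 11.68 in PEAR2 roots. Mock and estriol arrays did not overlap in any line. The changes were 7.32, 4.63 and 6.33 (SE 0.35), with adjusted p = 3.22e-07, 5.83e-06 and 2.34e-06. Dof1.1 exceeded Dof2.2 by 2.70 ± 0.50 (SE, adjusted p = 0.0260), which 8 of 23 alternative settings did not keep, the replicate block within lines among them (adjusted p = 0.0622), as well as leaving out the second Dof1.1 mock array (adjusted p = 0.107). The mean estriol signal in Dof2.2 roots, 9.42, was also under that of the Dof1.1 line, 12.12, after quantile normalization over all 12 arrays, at 9.81 and 12.11.

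**Figure D3:**
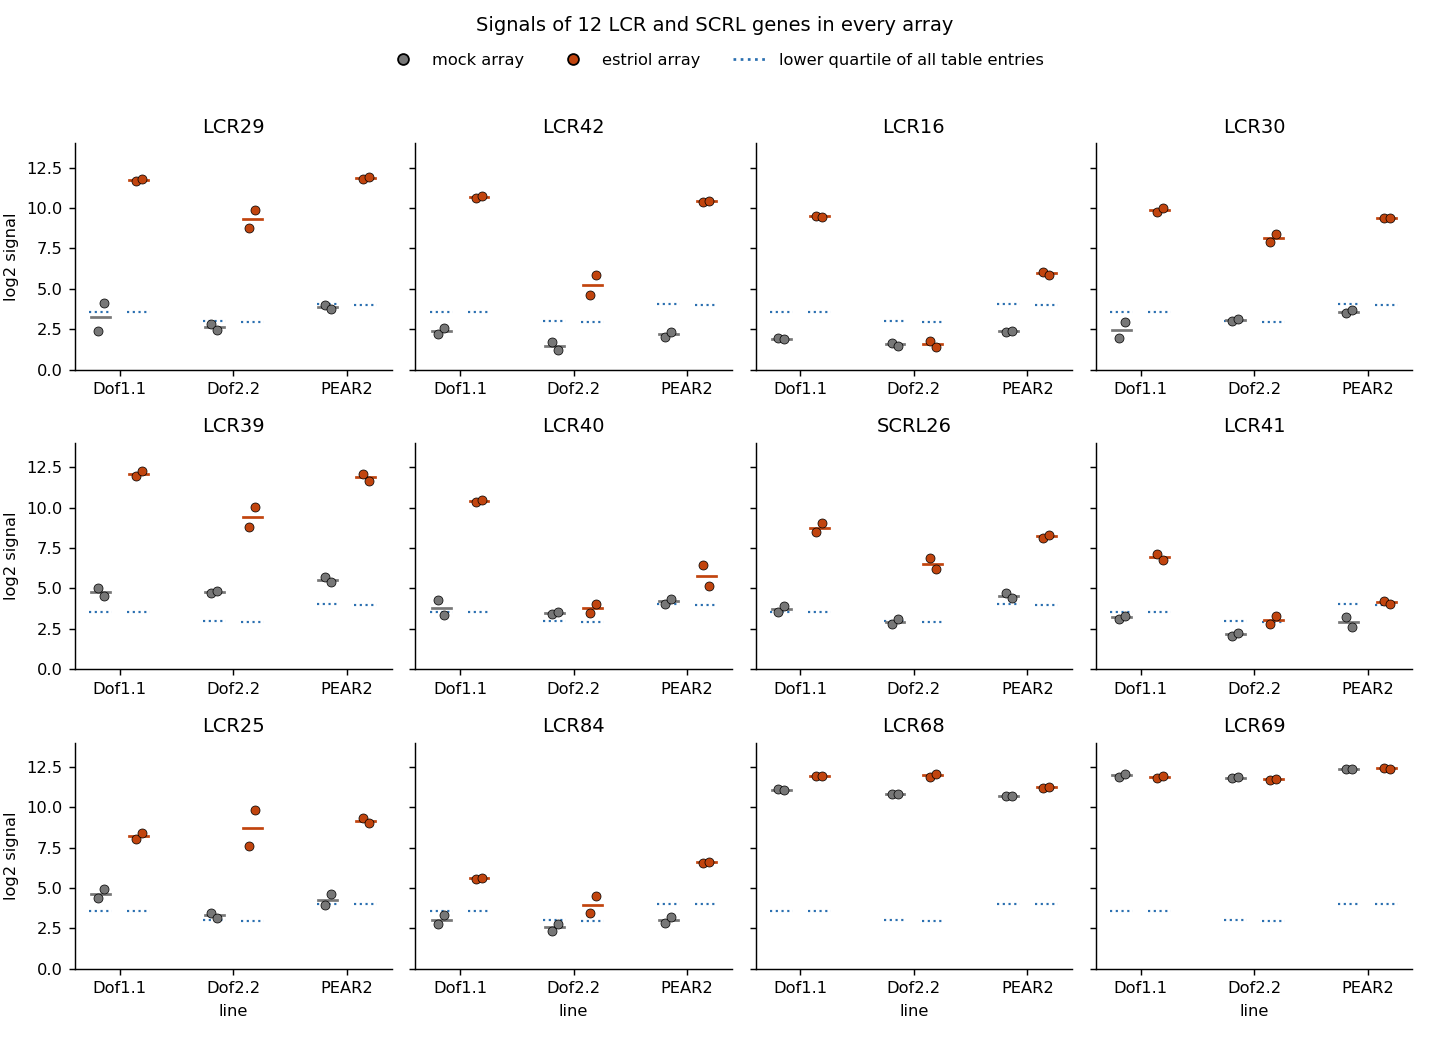
Log2 signals of 12 members in each of the 12 arrays, mock arrays in grey and estriol arrays in orange, with short bars at the group means of 2 arrays and dotted lines at the lower quartile of all table entries. LCR69 is level in all lines, LCR16 and LCR40 stay low in Dof2.2 roots, and the others rise in each line.

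LCR16 and LCR40 differed most between the Dof1.1 line and each of the others. LCR16 signals were 1.97 and 1.87 in Dof1.1 mock arrays and 9.52 and 9.46 in estriol arrays, and 2.31 and 2.41 against 6.06 and 5.88 in PEAR2 roots. In the Dof2.2 line they were 1.67 and 1.44 against 1.75 and 1.4, overlapping and dim. The changes were 7.57 in Dof1.1 roots and 3.61 in PEAR2 roots (SE 0.16, adjusted p = 5.76e-09 and 6.99e-07), and 0.02 in Dof2.2 roots, with a 95% interval of -0.34 to 0.38. All 3 differences between lines passed. Dof1.1 minus Dof2.2 was 7.55 ± 0.23 (SE, adjusted p = 2.70e-07), Dof1.1 minus PEAR2 was 3.96 ± 0.23 (adjusted p = 3.71e-05) and Dof2.2 minus PEAR2 was -3.59 ± 0.23 (adjusted p = 9.58e-05).

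LCR40 signals were 4.26 and 3.33 against 10.35 and 10.47 in Dof1.1 roots. They were 3.42 and 3.52 against 3.5 and 4.05 in Dof2.2 roots, where mock and estriol overlapped, and 4.03 and 4.36 against 6.45 and 5.13 in PEAR2 roots, where the estriol arrays were unlike each other. Only the Dof1.1 estriol arrays were high, and the estriol means after quantile normalization over all 12 arrays were 10.36, 4.42 and 5.29 in Dof1.1, Dof2.2 and PEAR2 roots. The changes were 6.62, 0.31 and 1.60 (SE 0.41), with adjusted p = 1.37e-06, 0.645 and 0.0213. The PEAR2 call was lost with a replicate block that pairs mock and estriol arrays of like number (adjusted p = 0.0534). It was lost with only the arrays of that line (adjusted p = 0.0761). Without PEAR2 mock array 1, mock array 2 or estriol array 1 it was lost as well, the change being 1.43, 1.76 and 0.935. The 95% interval of the Dof2.2 change ran from -0.61 to 1.22. Dof1.1 exceeded Dof2.2 by 6.31 ± 0.58 (SE, adjusted p = 0.000345) and PEAR2 by 5.02 ± 0.58 (adjusted p = 0.00214). Dof2.2 and PEAR2 differed by -1.29 ± 0.58, which did not pass (adjusted p = 0.431).

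LCR41 also rose most in Dof1.1 roots. Its signals were 3.12 and 3.29 against 7.11 and 6.75 there, 2.07 and 2.26 against 2.77 and 3.28 in Dof2.2 roots, and 3.23 and 2.64 against 4.24 and 4.05 in PEAR2 roots. Mock and estriol arrays did not overlap in any line, but the margins were small outside the Dof1.1 line. The changes were 3.73, 0.86 and 1.21 (SE 0.24), with adjusted p = 1.61e-06, 0.0211 and 0.00522. Dof1.1 exceeded Dof2.2 by 2.87 ± 0.34 (SE, adjusted p = 0.00169) and PEAR2 by 2.52 ± 0.34 (adjusted p = 0.00430). The Dof2.2 call was lost with only the arrays of that line (adjusted p = 0.0615). Without the second Dof2.2 estriol array, mock array 1 or mock array 2 it was lost as well, the change being 0.605, 0.765 and 0.955. The PEAR2 call was lost without the second PEAR2 mock array, where the change was 0.915.

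LCR84 had its largest change in PEAR2 roots and its smallest in Dof2.2 roots. Signals were 2.75 and 3.34 against 5.59 and 5.63 in Dof1.1 roots, 2.37 and 2.75 against 3.45 and 4.50 in Dof2.2 roots, and 2.86 and 3.22 against 6.56 and 6.61 in PEAR2 roots. All estriol arrays lay above the mock arrays of their line. The changes were 2.57, 1.42 and 3.55 (SE 0.32), with adjusted p = 0.000136, 0.00739 and 3.75e-05. Dof2.2 minus PEAR2 was -2.13 ± 0.45 (SE, adjusted p = 0.0495), at the edge of the threshold and past it in 9 of 23 alternative settings. The Dof2.2 call was lost with only the arrays of that line (adjusted p = 0.0675). It was also lost without the first Dof2.2 mock array, where the rise was 1.225.

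Differences between lines past the threshold were found for 6 members in which Dof1.1 exceeded Dof2.2 (background 0.949%) and 0 in the other direction (background 0.586%). Dof1.1 exceeded PEAR2 in 3 members (background 1.24%) and fell short in 0 (background 1.67%). Dof2.2 fell short of PEAR2 in 3 members (background 1.36%) and exceeded it in 0 (background 0.302%). At an unadjusted p under 0.05 in either direction, 12, 10 and 9 members differed in the Dof1.1 to Dof2.2, Dof1.1 to PEAR2 and Dof2.2 to PEAR2 comparisons, against 11%, 15.5% and 11.6% of all genes. The called members were among the strong risers in each case.

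**Figure D4:**
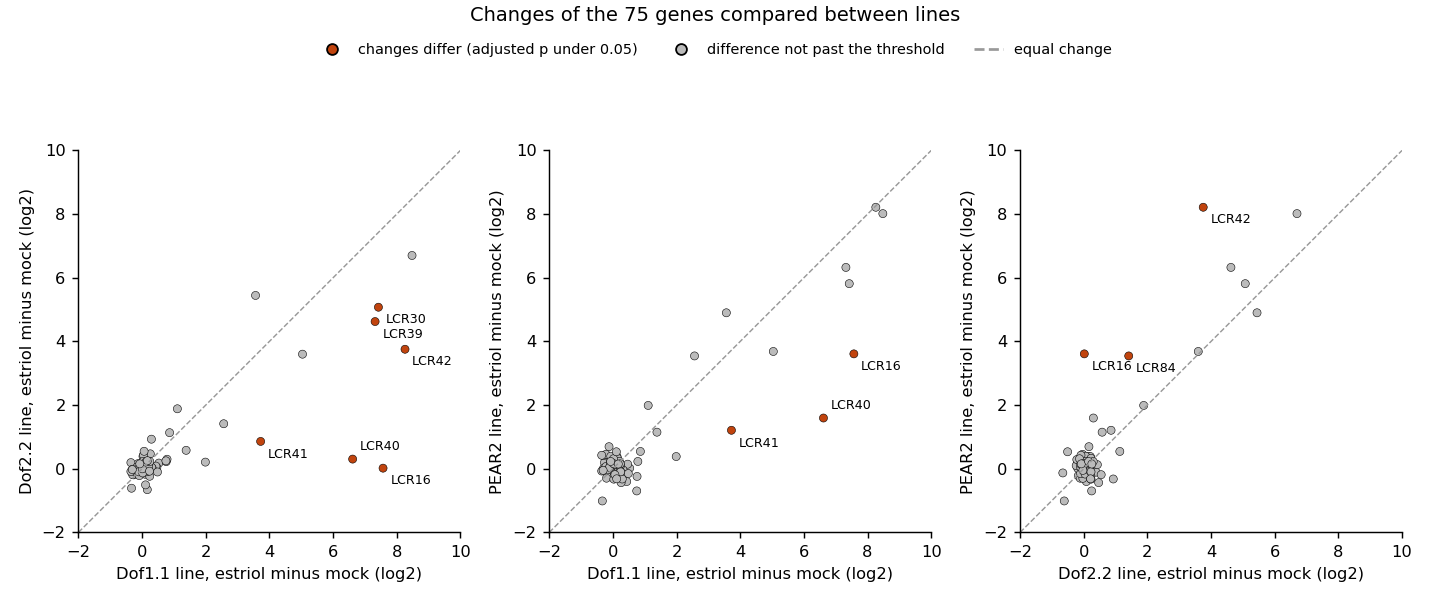
Change with estriol (log2 signal, estriol minus mock) of the 75 genes in one line against another for each pair of lines, with orange points where limma's difference between lines passed an adjusted p of 0.05 and a dashed line at equal change. LCR16 and LCR40 lie at 7.57 and 6.62 in Dof1.1 roots and near 0 in Dof2.2 roots.

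Among the 5 LCR genes that also bear a plant defensin name, 1 rose in each line and 0 fell in any. Of all genes 17.8%, 14.8% and 8.33% rose and 16.2%, 13.6% and 10.4% fell in Dof1.1, Dof2.2 and PEAR2 roots. The riser was LCR68, also PDF2.3, a gene with bright signals already in mock roots. Its signals were 11.13 and 11.04 against 11.96 and 11.94 in Dof1.1 roots, 10.84 and 10.83 against 11.85 and 12.09 in Dof2.2 roots, and 10.70 and 10.67 against 11.21 and 11.25 in PEAR2 roots. The estriol arrays were above the mock arrays by a small and even step. The changes were 0.87, 1.14 and 0.55 (SE 0.13), with adjusted p = 0.000590, 0.000113 and 0.0169, and the PEAR2 call was lost without any 1 of its 4 arrays (adjusted p = 0.0769 to 0.100).

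LCR69, also PDF2.2, was as bright and did not change detectably. Its signals were 11.90 and 12.04 against 11.79 and 11.94 in Dof1.1 roots, 11.80 and 11.86 against 11.71 and 11.76 in Dof2.2 roots, and 12.38 and 12.36 against 12.44 and 12.39 in PEAR2 roots. Mock and estriol overlapped in Dof1.1 roots and lay side by side without overlap in the other lines, by steps far under those of the risers. The changes ran from -0.11 to 0.05 (SE 0.13), the smallest adjusted p being 0.585. The other 3 LCR genes with a PDF name made no call.

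Of 17 listed plant defensins 13 were measured, the 5 members among them. In the whole list 2, 2 and 1 rose and 0 fell in Dof1.1, Dof2.2 and PEAR2 roots. Of all genes 17.8%, 14.8% and 8.33% rose and 16.2%, 13.6% and 10.4% fell. The riser that is no member was PDF2.1, the gene next to LCR68, with changes of 1.02 and 1.87 in Dof1.1 and Dof2.2 roots (adjusted p = 0.0375 and 0.00175) and 0.92 in PEAR2 roots (adjusted p = 0.0873). Its list had median changes of 0.13, -0.04 and 0.01, beside 0.11, 0.11 and 0.03 over all genes.

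Of the 12 SCRL genes, 1, 2 and 1 rose in Dof1.1, Dof2.2 and PEAR2 roots, against 17.8%, 14.8% and 8.33% of all genes. SCRL26 accounted for 1 in each. Its signals were 3.54 and 3.88 against 8.48 and 9.02 in Dof1.1 roots, 2.77 and 3.08 against 6.87 and 6.18 in Dof2.2 roots, and 4.70 and 4.41 against 8.15 and 8.33 in PEAR2 roots. All estriol arrays were clear of the mock arrays. The changes were 5.04, 3.60 and 3.69 (SE 0.26), with adjusted p = 4.96e-07, 4.52e-06 and 9.22e-06, and no difference between lines passed, Dof1.1 minus Dof2.2 being 1.44 ± 0.37 (SE, adjusted p = 0.118). The other SCRL riser was SCRL18, with 0.55 ± 0.17 (SE) in Dof2.2 roots (adjusted p = 0.0351), dim in every group. Its call was lost in 9 of 22 alternative settings, among them without the first mock array, where the change was 0.405.

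The 5 members that rose in exactly 1 line changed by less than 2 on the log2 scale there. LCR57 rose by 1.99 ± 0.32 (SE) in Dof1.1 roots (adjusted p = 0.000748), from 1.39 and 2.5 to 3.92 and 3.95, and a difference from the other lines did not pass (1.78 to Dof2.2, adjusted p = 0.107). LCR26 rose by 1.39 ± 0.43 (SE) in Dof1.1 roots (adjusted p = 0.0315) and had 0.58 and 1.15 in the other lines. That call was lost without either Dof1.1 mock array or the first estriol array (adjusted p = 0.159, 0.0589 and 0.172). LCR82 rose by 0.79 in Dof1.1 roots (adjusted p = 0.0323) while dim in every group. That call was lost in 5 of 22 alternative settings, and the change was 0.385 without the second estriol array. LCR85 rose by 0.93 in Dof2.2 roots (adjusted p = 0.0376), its mock arrays at 3.11 and 1.95 and its estriol arrays at 3.44 and 3.48. Of 23 alternative settings 12 did not keep that call, the replicate block within lines among them (adjusted p = 0.0533). Leaving out the second mock array, which gave a change of 0.35, was another.

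The single fall was that of LCR59 in Dof2.2 roots. Its mock signals were 2.18 and 1.8 and its estriol signals 1.48 and 1.19, all dim and without overlap. The gene fell by 0.66 on the log2 scale (SE 0.22, limma's adjusted p = 0.0473), and 12 of 22 alternative settings did not keep the call, the replicate block within lines among them (adjusted p = 0.0697). It was at 0.17 and -0.13 in Dof1.1 and PEAR2 roots.

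Most members without a call moved little. In the Dof1.1 line 61 such members ran from -0.35 to 1.11 (median 0.08), in Dof2.2 roots 63 from -0.61 to 1.89 (median 0.07) and in PEAR2 roots 64 from -1.01 to 1.99 (median 0.10). Under that block LCR46 and SCRL19, named after their values were seen, passed in Dof1.1 roots, at 0.76 and 0.75 (adjusted p = 0.00493 and 0.0452). LCR24, named after its values were seen, gave the upper end in each line. Its signals were 1.42 and 1.91 against 1.97 and 3.58 in Dof1.1 roots, 1.17 and 1.36 against 1.52 and 4.78 in Dof2.2 roots, and 2.47 and 2.15 against 4.25 and 4.35 in PEAR2 roots. One estriol array was high and the other near mock in Dof1.1 and Dof2.2 roots, and both were high in PEAR2 roots. Its SE of 0.84 was the largest of any member, and the PEAR2 change of 1.99 had an adjusted p of 0.140. That change passed with own-line arrays, array weights or either Dof2.2 estriol array left out (adjusted p = 0.00217, 0.0432 and 0.0105). Without the first Dof2.2 estriol array the LCR24 change in that line was 3.52 and passed (adjusted p = 0.00107), against 1.89 with it. LCR37, also named after its values were seen, gave the lower end in Dof2.2 and PEAR2 roots. It was not dim in any group and was measured at 6.48 and 5.90 against 5.33 and 5.03 in PEAR2 roots, a change of -1.01 ± 0.37 (SE, adjusted p = 0.0954) without overlap.

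Of the 75 members, 24 lie next to another member in the order of protein-coding genes of TAIR10.1, in 8 runs. The longest has 7 genes on chromosome 4, in the order LCR23, LCR22, LCR21, LCR24, LCR26, LCR27 and LCR25. In it 2 rose in Dof1.1 roots (LCR26 and LCR25) and 1 in each of the other lines (LCR25). LCR25 stood at one end with changes of 3.57 to 5.45, LCR24 and LCR26 were at 0.58 to 1.99, and the other 4 lay between -0.30 and 0.53. In the pair LCR42 and LCR39 both rose in every line. In the pair LCR41 and LCR18 only LCR41 rose, LCR18 being at -0.27, -0.19 and 0.20. The 5 other runs held no riser apart from LCR68.

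The measured non-members that flank LCR42, LCR39, LCR25, LCR16, LCR30 and SCRL26 did not share their strong rises. Beside LCR84 and LCR68, whose rises were smaller, a flanking gene also rose, in Dof2.2 roots by more than the member. Measured non-members that flank the members that rose in a line numbered 12, 11 and 9 in Dof1.1, Dof2.2 and PEAR2 roots. Of these, 3, 2 and 2 rose and 6, 3 and 4 fell. Of all genes 17.8%, 14.8% and 8.33% rose and 16.2%, 13.6% and 10.4% fell. The lowest change among these flanking genes was that of AT5G42250, beside LCR57, which fell by 4.22 in Dof1.1 roots, where LCR57 rose. AT3G23160, beside LCR42, fell by 1.29, 0.60 and 0.61 on the log2 scale. AT3G23170, beside LCR39 on the other side, was at 0.74, 0.69 and 1.2, with adjusted p = 0.0434, 0.0667 and 0.00737. AT4G29310, beside LCR25, fell by 1.51, 1.19 and 1.04. AT1G49450, beside LCR16, fell by 1.71, 2.91 and 1.18, so it fell in Dof2.2 roots also, where LCR16 was level. AT4G22110, beside SCRL26, fell by 0.50, 0.99 and 0.77. The genes next to LCR29 and LCR40 were not measured. AT2G14290, beside LCR84, rose by 2.04, 1.57 and 2.17 (adjusted p = 0.000607, 0.00383 and 0.000816). PDF2.1 (AT2G02120), beside LCR68, rose in Dof1.1 and Dof2.2 roots as given above. Probe sequences were not used here, so signal from near-identical relatives on one probe set cannot be told apart.

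**Figure D5:**
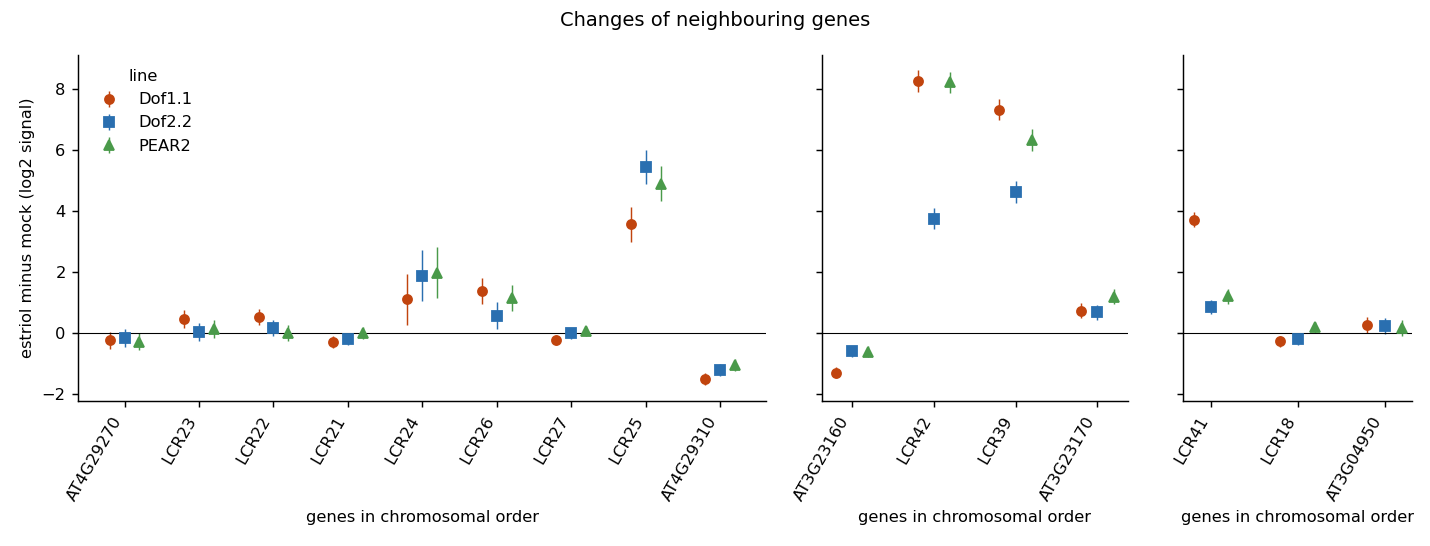
Change with estriol (log2 signal, estriol minus mock) of members and their flanking genes in chromosomal order for 3 stretches, with a marker for each line and bars of 1 standard error of the limma fit. LCR25, LCR42, LCR39 and LCR41 stand above 0 while AT3G23160 and AT4G29310 lie below it.

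In the Dof2.2 line the estriol arrays differed for these genes. Of the 11 risers, 10 were higher in the second estriol array, by a median of 0.54 on the log2 scale (-0.69 to 2.23), whereas 63% of all 2452 genes that rose in that line were higher in the second, by a median of 0.10. In the Dof1.1 line 10 of 14 risers were higher in the second estriol array (all risers 48.7%), and in PEAR2 roots 5 of 11 (all risers 39.4%). Its part in the smaller Dof2.2 rises was not tested. The members called in that line were not the same set with an estriol array left out. Without the first, LCR24 and LCR26 came in, at 3.52 and 1.375, and LCR85 and SCRL18 dropped out, at 0.95 and 0.625. Without the second, LCR20 came in, at 0.7, and LCR41, LCR85 and SCRL18 dropped out, at 0.605, 0.91 and 0.475.

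The other secreted cysteine-rich peptide genes that were measured did not rise as far as the strongest members. Of 62 listed genes 13 were measured, of which 2, 0 and 1 rose and 1, 1 and 1 fell in Dof1.1, Dof2.2 and PEAR2 roots. Of all genes 17.8%, 14.8% and 8.33% rose and 16.2%, 13.6% and 10.4% fell. The median changes of the 13 were -0.01, 0.03 and -0.18. LURE1.3, of the family of synergid peptides that attract pollen tubes, rose by 2.71 in Dof1.1 roots from 2.25 and 3.24 to 5.43 and 5.48. Its Dof1.1 change exceeded that in Dof2.2 roots by 2.68 (adjusted p = 0.00615) and that in PEAR2 roots by 2.97 (adjusted p = 0.00338). EC1.1, an egg cell peptide, rose by 0.54 and 0.56 in Dof1.1 and PEAR2 roots, while dim. GRI, a peptide precursor tied to cell death, fell by 2.89, 1.4 and 2.03. Of 36 listed receptors of such peptides 5 were measured, and FER, a receptor kinase of root growth, fell by 0.99 and 0.81 in Dof1.1 and Dof2.2 roots, with -0.48 in PEAR2 roots (adjusted p = 0.0563).

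Marker genes moved beside the members. Their counts stand against 17.8%, 14.8% and 8.33% of all genes that rose in Dof1.1, Dof2.2 and PEAR2 roots, and 16.2%, 13.6% and 10.4% that fell. Of 16 listed genes of the female gametophyte, where many small cysteine-rich peptides are known to be made, 7 were measured and 3, 2 and 2 rose in Dof1.1, Dof2.2 and PEAR2 roots. Most of that rise was AGL80, a MADS-box gene of the central cell, which had mock means of 7.75, 7.16 and 8.11 and rose by 3.97, 3.30 and 3.08. DME, a DNA demethylase active in the central cell, rose by 0.70 and 0.52 in Dof1.1 and Dof2.2 roots, with 0.36 in PEAR2 roots (adjusted p = 0.0993). The summed level of the 7 ran from 9.01 to 9.98 in mock and from 10.82 to 12.02 in estriol arrays. The egg cell genes EC1.2, EC1.3 and EC1.5 made no call. AGL61 of the same list made none either, with mock means of 1.68, 1.67 and 2.3 and changes of 0.245, 0.145 and 0.24. The 7 measured pollen markers of 19 had 0 rises and 1 fall, that of MGH3, a histone gene of male germ cells, with a change of -0.57 in Dof1.1 roots (adjusted p = 0.0396), and summed levels of 4.89 to 6.46. Of 22 phloem markers OPS, SWEET11 and SWEET13 were measured, and 2, 2 and 3 rose. OPS rose by 0.91, 1.29 and 1.21, SWEET13 by 1.58, 2.84 and 1.97, and SWEET11 by 4.01 in PEAR2 roots, with 1.48 and 0.30 in the other lines (adjusted p = 0.0640 and 0.752). The root hair genes EXPA7 and EXPA18 fell in every line, with changes of -1.88 to -5.17, and PYK10 fell by 0.60 and 0.60 in Dof1.1 and Dof2.2 roots, with -0.24 in PEAR2 roots (adjusted p = 0.345). The only measured seed and shoot markers, OLEO3 and RCA, made no call. The part of any of these in the members' rises was not tested.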

How the data were processed

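Roots were profiled on 12 arrays, biotin-labelled with the GeneChip WT terminal labelling kit per the labels. The deposited values are log2 signals made by the authors, with RMA named in the submitters' processing notes. The sources used here give no version and no level of summarisation. Array quantiles were closer within lines than between them, so levels are set across lines only beside quantile-normalized values. Groups followed the sample titles.

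Entries naming 1 gene in the platform annotation were kept, with the highest-mean entry per gene, 16548 in all. Symbols were checked against RefSeq TAIR10.1 by Entrez identifier, which matched all 75 members, and that table gave names and neighbours only. In limma 3.58.1 (R 4.3.3), 1 model of 6 group means was fitted to 12 arrays (6 residual and 3.94 prior degrees of freedom). Tested were the change with estriol within every line and the 3 differences between lines, two-sided, with Benjamini-Hochberg adjustment over all 16548 genes and a threshold of 0.05. Replicates are called biological in the titles, and 2 arrays a group limit the precision. Same-numbered mock and estriol arrays of a line deviated together, with correlations of 0.32, 0.17 and 0.13 in Dof1.1, Dof2.2 and PEAR2 roots. Arrays of different lines had -0.08 to 0.11, so the PEAR2 value was little above that range. Pairing within lines is thus possible. The main model had no block, so its calls do not allow for pairing. A replicate block within lines was run as an alternative and changed some calls, as given below.

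Array values are given for the 5 largest rises and falls past the threshold in each line whose mock and estriol arrays did not overlap, the 3 largest differences between lines in each direction, and the 5 members with the highest mean signal. Further members past the threshold, transgenes and the defensin, cysteine-rich peptide and receptor genes past it are named with their change, and so are marker genes, which the rule did not cover. The members, lists and rules were chosen with earlier results of these data known. The fit was tested on simulated data. Alternatives covered normalization, filtering, moderation, array weights, own-line arrays, replicate blocks, gene summaries and leaving out each array.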

Additional observations from a re-analysis of the deposited data

Results flagged for a closer look

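These results stand here because the change with estriol differed between lines in limma's test of the difference itself. LCR16 differed in every pair, by 7.55 for Dof1.1 minus Dof2.2, 3.96 for Dof1.1 minus PEAR2 and -3.59 for Dof2.2 minus PEAR2. LCR40 differed by 6.31 for Dof1.1 minus Dof2.2 and 5.02 for Dof1.1 minus PEAR2, and LCR41 by 2.87 and 2.52. LCR42 differed by 4.51 for Dof1.1 minus Dof2.2 and by -4.46 for Dof2.2 minus PEAR2. LCR39 and LCR30 differed by 2.70 and 2.35 for Dof1.1 minus Dof2.2, and LCR84 by -2.13 for Dof2.2 minus PEAR2. The differences of LCR16, LCR40, LCR41 and LCR42 passed in all 23 alternative settings, those of LCR30, LCR39 and LCR84 in 18, 15 and 9. Lines differ in transgene and background together, so their parts cannot be told apart.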

How the results depend on the processing

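No called change turned its sign under any alternative. The calls of LCR16 in Dof1.1 and PEAR2 roots and of LCR25, LCR29, LCR30, LCR39, LCR42 and SCRL26 in all lines held in 23 of 23 settings. The Dof2.2 fall count (LCR59) went to 0 with trended robust moderation, array weights, own-line arrays and a 2-fold minimum. The replicate block of same-numbered arrays in a line also gave 0. Without the genes of lowest mean LCR59 was left out, at a mean of 2.05 under the limit of 3.24, so that setting did not test it. The PEAR2 fall count went from 0 to 1 (LCR37) with array weights and with own-line arrays. With own-line arrays 7 members rose in the Dof2.2 line, the calls of LCR41, LCR84, LCR85 and SCRL18 being lost. LCR41 and LCR84 then no longer rose in all lines, and LCR40 lost its PEAR2 call. The replicate block by number over all lines gave 5 Dof1.1 minus PEAR2 differences in place of 3. The replicate block within a line gave 16, 10 and 10 rises in Dof1.1, Dof2.2 and PEAR2 roots and 9 in all lines. Of the calls named it changed those of LCR40, LCR59 and LCR85 and the LCR39 difference. The cause of these shifts was not tested. With each array left out in turn, rises numbered 12 to 15, 8 to 11 and 8 to 13, rises in all lines 7 to 10, falls 0 to 1 in each line, and differences 4 to 6, 3 to 5 (5 without Dof1.1 mock replicate 2) and 2 to 4. Filtering dim genes kept 20 of the 75 members, and dim signals limit what can be seen for the rest.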
